A study of Mus musculus with 19 samples.

Results

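The genes described here encode the Aster family of sterol transporters (Gramd1a, Gramd1b and Gramd1c) and 6 other proteins that move cholesterol inside cells without vesicles (Stard3, Stard5, Npc1, Npc2, Osbp and Scp2). They were taken by symbol, 9 of the 49315 genes counted, and all 9 passed the filter on low counts that left 15016 genes for testing. Liver RNA came from 19 female mice on a C57Bl6/N background, 1 library per mouse. Gramd1c+/+ mice and Gramd1c-/- mice, which carry a knockout-first allele in every tissue, were littermates from heterozygous parents. From 8 weeks of age they ate a low cholesterol diet (0.02% wt/wt; 5 Gramd1c+/+ and 4 Gramd1c-/- mice) or a high cholesterol diet (0.2% wt/wt; 5 mice of each genotype) for 4 weeks. The comparisons ask whether losing Aster-C, or eating more cholesterol, went with a change in the transcripts of proteins with related tasks.

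Aster proteins are anchored in the endoplasmic reticulum (ER) and, when the plasma membrane holds more cholesterol than its lipids can bind, reach across contact sites to carry the excess inward. Cholesterol taken up in lipoproteins arrives by another way, through the lysosome, where NPC2 hands it to the membrane protein NPC1. Cholesterol that reaches the ER is esterified for storage and holds back SREBP2, the transcription factor that drives sterol synthesis and uptake, and in the liver it also feeds bile acid synthesis.

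Each library held 27149972 to 34669648 counts. The tissue field of the labels names gonadal fat and the cell type field names liver. Albumin (Alb) took 5.25 to 9.17% of the counts and adiponectin (Adipoq) had at most 177 counts in any library. The mice are numbered as in the labels, and 4 libraries stood apart. Mouse 2 of the Gramd1c+/+ low cholesterol group held all 9 markers of adrenal cortex at their highest, at 629 TPM (a transcript level scaled for gene length and library size) in sum against 1.76 to 4.66 in the other mice, and 4 of 5 adipocyte markers, at 132 TPM against 2.32 to 8.31. Mouse 3 of the Gramd1c-/- high cholesterol group held 3 of 4 cholangiocyte markers at their highest (141 TPM in sum against 2.99 to 8.04) and Ctrb1, a pancreatic acinar gene, at 58.9 TPM against at most 0.969, while the other 3 acinar markers were at 0 (Cpa1, Pnlip) or at their lowest of all mice (Cela2a, 0.0430 TPM). Krt19 alone gave 120 TPM of the cholangiocyte sum, and Sox9, at 2.24 TPM, lay within the 0.876 to 3.28 of all mice. Des, 1 of 5 stellate cell markers, was at 12.7 TPM in this library and at most 4.42 elsewhere. The sum of the 5 stellate markers, 204 TPM, lay within the 122 to 250 of the other mice. In mouse 4 of that group 7 of 8 macrophage markers were at their highest, 997 TPM in sum against 195 to 557. Mouse 5 of that group scored 83.1 on the first principal component of log2 CPM (counts scaled to library size), which held 24.4% of the variance, against -46.7 to 38.4 elsewhere. In whole tissue, fewer cells of a type and less RNA per cell cannot be told apart.

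The 9 transcripts differed widely in level. Scp2 was by far the most abundant, at 1770 TPM (SD 327, n = 19), and Gramd1b the least, at 0.926 TPM (SD 0.664). In between, the means over all mice were 66.9 TPM for Npc2, 50.2 for Stard5, 44.6 for Npc1, 27.1 for Osbp, 10.4 for Stard3, 6.85 for Gramd1c and 3.85 for Gramd1a. Scp2 was above Npc2 in 19 of 19 mice with no overlap of their ranges, and Npc2 was above Stard5 in 18. Stard5 and Npc1 did not differ beyond their spread: Stard5 was the higher in 10 of 19 mice. Npc1 exceeded Osbp, and Osbp exceeded Stard3, in every mouse, although the ranges over all mice overlapped. The place of Gramd1c depended on genotype, above Gramd1a in all 10 Gramd1c+/+ mice and below it in all 9 Gramd1c-/- mice. Stard5 was the steadiest transcript, with a coefficient of variation of 9.08% over all mice, whereas that of Osbp was 29.3%.

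Gramd1c, which encodes Aster-C (chromosome 16, 43980350 to 44063345, minus strand, GRCm38), was reduced in every Gramd1c-/- mouse. On low cholesterol its level was 10.9, 11.6, 10.4, 12.3 and 15.99 TPM in Gramd1c+/+ mice 1 to 5, and 1.87, 2.04, 1.45 and 1.25 TPM in Gramd1c-/- mice 1 to 4. The high cholesterol groups were at 11.7, 9.56, 9.66, 11.5 and 10.8 TPM with the gene intact and at 1.07, 1.58, 1.67, 1.27 and 3.61 TPM in the knockouts. The genotypes did not overlap on either diet, as held in that direction for 1.04% of all genes tested on low and 0.0599% on high cholesterol, and mouse 5 of the Gramd1c-/- high cholesterol group was the highest of the knockouts. The Gramd1c-/- mean was 0.135 of the Gramd1c+/+ mean on low cholesterol and 0.173 on high cholesterol (exact permutation p = 0.00794 in each, two-sided, the smallest these group sizes allow).

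In edgeR's quasi-likelihood test of all genes, Gramd1c fell by 2.89 on the log2 scale on low cholesterol (SE 0.30, Benjamini-Hochberg adjusted p = 9.79e-05). On high cholesterol it fell by 2.58 (SE 0.27, edgeR adjusted p = 1.18e-04). It was the only gene called on each diet, 1 of 15016, which is 0.00666% of the genes tested. The diets differed in this effect by 0.31 (95% interval -0.48 to 1.10), and by -0.14 without mouse 5 of the Gramd1c-/- high cholesterol group. Between 74 and 251 counts remained per Gramd1c-/- library. Counts were deposited per gene, so which exons hold the remaining reads was not tested.

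Diet did not shift Gramd1c detectably. High against low cholesterol gave a log2 difference of -0.16 in Gramd1c+/+ mice (95% interval -0.68 to 0.36) and of 0.15 in Gramd1c-/- mice (-0.44 to 0.74), and the latter was -0.30 without mouse 5 of the high cholesterol group.

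Gramd1a and Gramd1b encode the other two Asters, and neither was called in any comparison. Gramd1a (Aster-A, broadly expressed; chromosome 7, 31130127 to 31155896, minus strand) was at 3.16, 4.45, 2.71, 3.31 and 4.09 TPM in Gramd1c+/+ mice 1 to 5 on low cholesterol and at 3.18, 3.0005, 3.24 and 3.82 TPM in knockouts. Feeding high cholesterol gave 3.10, 4.43, 3.09, 4.54 and 3.56 TPM in Gramd1c+/+ mice and 3.50, 3.03, 4.02, 4.36 and 8.62 TPM in Gramd1c-/- mice. The groups overlapped in every comparison, and a single mouse, number 5 of the last group, lay far above all others. The genotype difference was -0.09 log2 on low cholesterol (95% interval -0.61 to 0.42) and 0.28 on high cholesterol (-0.20 to 0.77), where it was -0.11 without mouse 5 of the Gramd1c-/- group. The diet difference in Gramd1c-/- mice was 0.51 (SE 0.25, edgeR adjusted p = 0.442), and 0.11 without that mouse. Of the exonic bases of Gramd1a, 8.02% overlap G630030J09Rik on the other strand. The strand setting of the counting is not given, so reads of that stretch cannot be assigned.

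Gramd1b (Aster-B, best known for supplying cholesterol to the adrenal cortex; chromosome 9, 40293233 to 40531383, minus strand) was at 0.706, 3.47, 0.670, 0.688 and 0.530 TPM in Gramd1c+/+ mice 1 to 5 on low cholesterol and at 0.630, 0.814, 0.605 and 0.645 TPM in knockouts. The groups fed high cholesterol were at 0.771, 0.643, 0.680, 1.05 and 0.684 TPM in Gramd1c+/+ mice and at 0.780, 0.705, 1.67, 0.964 and 0.889 TPM in Gramd1c-/- mice. Outside the highest mouse of each group the levels lay close together, between 0.530 and 0.964 TPM. The highest, mouse 2 of the Gramd1c+/+ low cholesterol group, was the library with the adrenal cortex markers: Hsd3b1 was at 198 TPM there and at most 1.48 elsewhere, and Cyp21a1 at 191 TPM and at most 0.731 elsewhere. Star reached 84.0 TPM, Cyp11b1 66.9, Akr1b7 47.0, Cyp11a1 29.1, Mc2r 5.77, Nr5a1 5.38 and Cyp11b2 1.54 TPM in that library.

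With that library the genotype difference in Gramd1b on low cholesterol was -0.77 log2 (95% interval -1.58 to 0.04), and without it 0.005. The diet difference in Gramd1c+/+ mice was -0.55 with it and 0.23 without it. Mouse 3 of the Gramd1c-/- high cholesterol group, second highest for Gramd1b, was the library with cholangiocyte markers and Ctrb1, and the genotype difference on high cholesterol was 0.30 with it and 0.13 without it. The part these markers had in Gramd1b was not tested beyond leaving the libraries out. The diet effect differed between the genotypes by 1.07 log2 (SE 0.53, edgeR unadjusted p = 0.0565), and by 0.08 without both of these libraries and mouse 5 of the Gramd1c-/- high cholesterol group.

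Added over the 3 genes, Aster transcripts came to 17.0 TPM (SD 2.97, n = 5) in Gramd1c+/+ and 5.63 TPM (SD 0.240, n = 4) in Gramd1c-/- mice on low cholesterol. The high cholesterol sums were 15.2 TPM (SD 1.34, n = 5) and 7.55 TPM (SD 3.23, n = 5). The lower sums follow from the knockout of Gramd1c itself and were not tested. Gramd1c made up 72.4% of Aster transcripts in Gramd1c+/+ mice on low and 70.3% on high cholesterol, and 29.2% and 23.9% in Gramd1c-/- mice. The shares in Gramd1c-/- mice count the remaining Gramd1c reads, whose exons were not tested. The sum of Gramd1a and Gramd1b, which the knockout allele does not touch, was 4.75 TPM (SD 1.82) in Gramd1c+/+ against 3.98 TPM (SD 0.324) in knockouts at low cholesterol (exact permutation p = 0.651, two-sided), where mouse 2 of the Gramd1c+/+ group, the library with adrenal markers, was at 7.92 TPM and the other 4 at 3.38 to 4.62 TPM. On high cholesterol it was 4.51 TPM (SD 0.794) against 5.71 TPM (SD 2.26; exact permutation p = 0.294, two-sided). The remaining Asters thus showed no detectable rise in knockout livers, and the spread on high cholesterol came mostly from mouse 5, at 9.51 TPM.

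**Figure D1:**
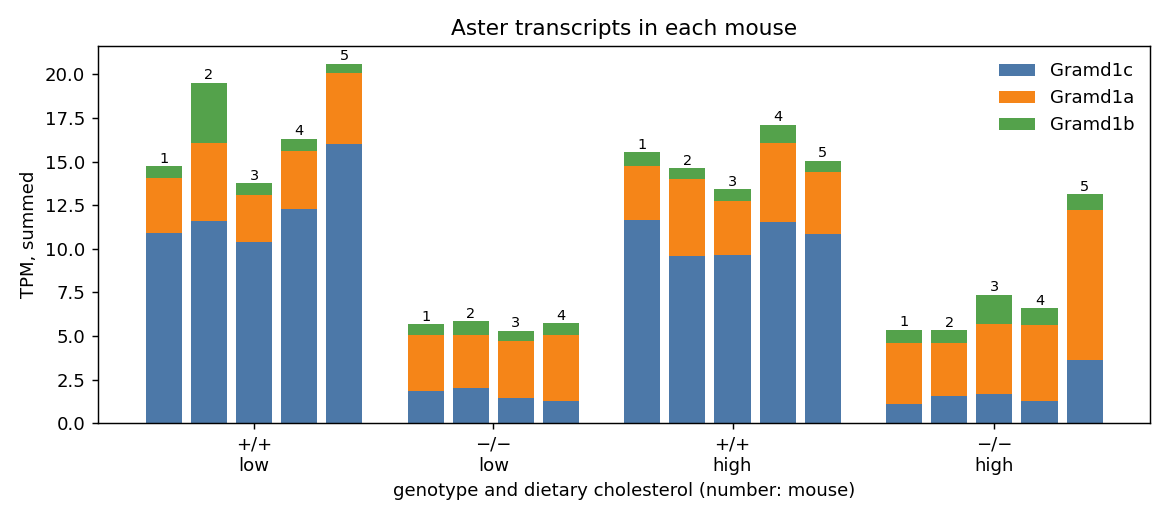
Stacked bars give the TPM of Gramd1c, Gramd1a and Gramd1b in each of the 19 mice, grouped by genotype (+/+ or −/−) and dietary cholesterol, with the mouse number above each bar. Gramd1c is the largest piece in every +/+ mouse and Gramd1a the largest in every −/− mouse, mouse 2 of the +/+ low group has the tallest Gramd1b piece (3.47 TPM), and mouse 5 of the −/− high group reaches 13.1 TPM in sum.

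Npc1 and Npc2 form the lysosomal export route. Npc1 (18: 12189693 to 12236400, minus strand) varied widely among the mice of 3 of the 4 groups. It ranged from 28.5 to 59.8 TPM in Gramd1c+/+ and from 43.6 to 53.4 TPM in Gramd1c-/- mice on low cholesterol, and from 28.7 to 63.1 TPM and from 28.9 to 60.0 TPM on high cholesterol. Its genotype difference was 0.06 log2 on low and -0.14 on high cholesterol, and its diet difference -0.11 in Gramd1c+/+ and -0.31 in Gramd1c-/- mice, each with a 95% interval that spanned 0. The first of these was -0.061 without mouse 2 and -0.072 without mouse 4 of the Gramd1c+/+ low cholesterol group.

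Npc2 (12: 84754560 to 84773112, minus strand) was lower in every Gramd1c+/+ mouse on high cholesterol than in any on low cholesterol. Its level was 67.1, 77.0, 68.3, 73.5 and 82.9 TPM on low and 65.7, 60.0, 57.4, 66.8 and 57.3 TPM on high cholesterol. These ranges come close but do not overlap (exact permutation p = 0.00794, two-sided), as held for 1.03% of all genes tested in that direction. Across all genes the edgeR log2 difference was -0.22 (SE 0.15, adjusted p = 0.743), so Npc2 was not called. In Gramd1c-/- mice it was at 75.1, 69.5, 69.4 and 66.2 TPM on low and at 59.3, 70.8, 65.0, 84.1 and 35.1 TPM on high cholesterol, groups that overlapped. The highest of these, mouse 4, was the library with the most macrophage marker RNA, and the lowest, mouse 5, was the one set apart on the first principal component, and their part in the Npc2 values was not tested further. The diet difference in Gramd1c-/- mice was -0.20. It was -0.29 without mouse 4 and -0.061 without mouse 5.

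Stard3 and Stard5 carry a START domain, a pocket that holds a single lipid. STARD3 sits in late endosomes and passes cholesterol between them and the ER. Its transcript (11: 98358368 to 98381112, plus strand) stayed between 7.74 and 13.1 TPM in all mice. No genotype or diet difference for Stard3 within a group exceeded 0.13 in size on the log2 scale (SE 0.12 to 0.13), and every 95% interval lay between -0.40 and 0.32. Stard5, a soluble START protein of the cytosol (7: 83631959 to 83653127, plus strand), averaged 52.5 TPM (SD 5.27, n = 5) in Gramd1c+/+ and 47.0 TPM (SD 3.21, n = 4) in Gramd1c-/- mice on low cholesterol. With high cholesterol it averaged 52.1 TPM (SD 4.52, n = 5) and 48.5 TPM (SD 3.53, n = 5). The Gramd1c-/- means were the lower on both diets, by 0.17 log2 on average (-0.17, SE 0.08, edgeR unadjusted p = 0.0417, adjusted p = 0.999), and the ranges overlapped on each diet. Of the exonic bases of Stard5, 22.01% overlap the antisense gene Il16, and the strand setting of the counting is not given, so reads of this stretch cannot be assigned. Between diets Stard5 differed by 0.03 in Gramd1c+/+ and 0.02 in Gramd1c-/- mice, both within intervals from -0.21 to 0.26.

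Osbp, which trades cholesterol for phosphatidylinositol 4-phosphate between the ER and the Golgi (19: 11965844 to 11994105, plus strand), showed the largest diet difference of the 9 after the averaging of both genotypes, and did not pass the test across all genes. Osbp was at 40.3, 32.8, 31.0, 26.6 and 24.3 TPM in Gramd1c+/+ mice and at 25.3, 33.3, 28.0 and 39.5 TPM in knockouts on low cholesterol. The mice fed high cholesterol were at 21.5, 18.3, 12.9, 35.2 and 30.2 TPM in Gramd1c+/+ mice and at 19.04, 19.04, 33.4, 29.0 and 15.0 TPM in knockouts. In each high cholesterol group 3 mice lay below every low cholesterol mouse and the other 2 lay within the low cholesterol range. The log2 difference was -0.40 (SE 0.19) in Gramd1c+/+ and -0.50 (SE 0.20) in Gramd1c-/- mice, and -0.45 on average (SE 0.14, edgeR unadjusted p = 0.00456, adjusted p = 0.109, higher than the threshold of 0.05). DESeq2 gave an adjusted p of 0.0602 for the average, and edgeR with each mouse left out gave 0.0816 to 0.214. The genotypes differed in Osbp by 0.01 on low and -0.09 on high cholesterol.

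Promoter sequence is shown for Osbp, the member nearest to a diet effect, for Stard3, the only member whose window held the letters of a sterol regulatory element, and for Hmgcs1, a sterol synthesis gene that responded to the diet. The windows run from 250 bases before to 50 after a RefSeq start (GRCm38.p6, plus strand of the genome and of the gene): chr19:11965594-11965893 for Osbp, chr11:98358118-98358417 for Stard3 and chr13:119690101-119690400 for Hmgcs1. Capitals mark TCACNCCAC, the sterol regulatory element letters, and CCAAT, the box bound by NF-Y, on both strands, so that ATTGG is CCAAT on the other strand.
Osbp: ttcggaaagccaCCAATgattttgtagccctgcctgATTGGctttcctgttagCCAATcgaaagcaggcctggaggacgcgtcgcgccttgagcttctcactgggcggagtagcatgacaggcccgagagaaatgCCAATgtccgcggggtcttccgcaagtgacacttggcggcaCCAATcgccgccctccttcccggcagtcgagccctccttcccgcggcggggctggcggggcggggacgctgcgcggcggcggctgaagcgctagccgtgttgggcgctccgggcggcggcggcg
Stard3: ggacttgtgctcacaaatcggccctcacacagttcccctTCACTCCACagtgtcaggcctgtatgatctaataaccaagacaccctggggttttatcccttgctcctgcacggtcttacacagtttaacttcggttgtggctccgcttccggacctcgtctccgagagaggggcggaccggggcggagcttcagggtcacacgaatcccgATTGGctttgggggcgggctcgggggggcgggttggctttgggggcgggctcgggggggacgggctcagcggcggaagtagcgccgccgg
Hmgcs1: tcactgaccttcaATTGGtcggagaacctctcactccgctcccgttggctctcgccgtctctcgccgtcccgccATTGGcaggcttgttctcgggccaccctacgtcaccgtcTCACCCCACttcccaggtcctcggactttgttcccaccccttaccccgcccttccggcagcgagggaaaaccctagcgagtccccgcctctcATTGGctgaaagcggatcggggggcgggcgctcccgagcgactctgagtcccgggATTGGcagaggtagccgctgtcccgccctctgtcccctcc

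Of 32851 windows in the table, 1.24% held TCACNCCAC and 37.4% held CCAAT. Among the 9 members, 7 had a window, and Stard3 alone held the first motif, as TCACTCCAC from 211 bases before its start. Hmgcs1 held TCACCCCAC from 137 bases before its start. The Osbp window held 5 copies of CCAAT on both strands together, and the Hmgcs1 window 4. Stard5 and Npc2 held 2 copies each, Gramd1a, Gramd1c and Stard3 held 1 each, and Scp2 held 0. The share of all windows with as many copies as Osbp or Hmgcs1 was not computed. A match of letters is a description, and binding was not tested. Stard3, with such letters, differed by -0.07 log2 between the diets in Gramd1c+/+ mice (95% interval -0.32 to 0.18). Hmgcs1, which was picked because it responded to the diet and also holds such letters, fell by 2.27 in the same comparison. Windows of the other genes that responded were not compared, so a relation of these letters to the diet response was not tested.

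Scp2, a transfer protein and thiolase of peroxisomes where bile acid side chains are shortened (4: 108043839 to 108144998, minus strand), was at 1581, 1686, 1502, 1773 and 1128 TPM in Gramd1c+/+ mice 1 to 5 on low cholesterol and at 1578, 1732, 1786 and 2556 TPM in knockouts 1 to 4. High cholesterol mice were at 2178, 1494, 1451, 2000.5 and 2094 TPM in Gramd1c+/+ mice and at 2156, 1530.1, 1854, 1666 and 1888 TPM in Gramd1c-/- mice. The Gramd1c+/+ low cholesterol mice had the lowest mean, and all groups overlapped. Its log2 difference was 0.31 for genotype on low cholesterol (SE 0.17, edgeR adjusted p = 0.999) and 0.17 without mouse 4 of the Gramd1c-/- group. For diet it was 0.30 in Gramd1c+/+ mice (SE 0.16, edgeR adjusted p = 0.663) and -0.08 in Gramd1c-/- mice, a difference between genotypes of -0.38 (95% interval -0.85 to 0.10). A pseudogene, Scp2-ps2, was counted at 44.8 to 129 TPM, and reads it may share with Scp2 make both values uncertain.

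**Figure D2:**
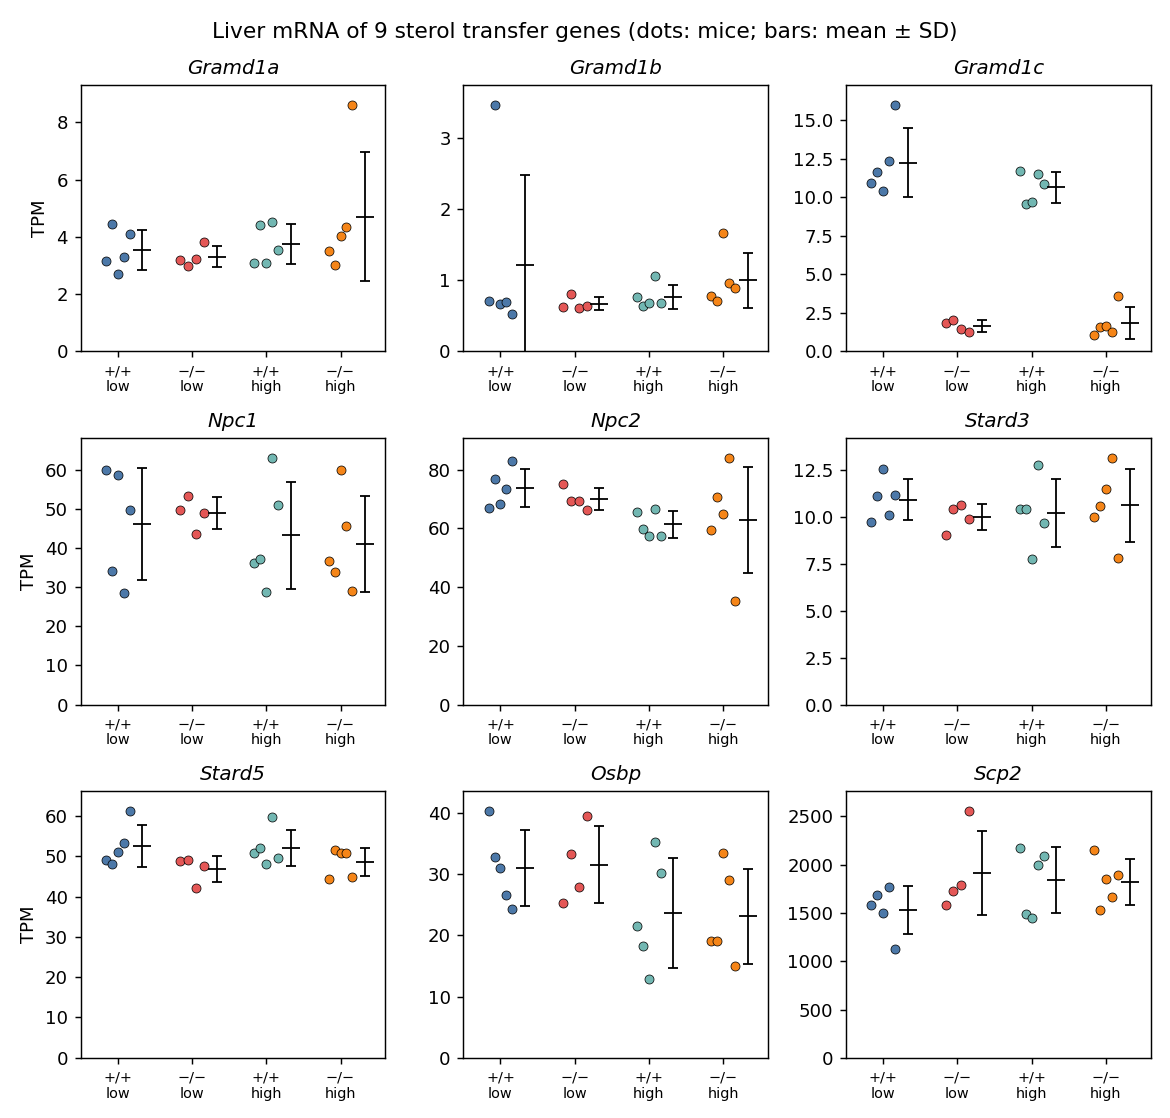
Each panel plots the TPM of a gene in every mouse (dots, in order of mouse number) by genotype (+/+ or −/−) and dietary cholesterol (low or high), with the group mean ± SD beside the dots; axes start at 0, which cuts the lower SD bar of Gramd1b in the +/+ low group. Only Gramd1c separates by genotype, single mice set the upper ends for Gramd1a (8.62 TPM) and Gramd1b (3.47 TPM), and Osbp on high cholesterol reaches down to 12.9 TPM.

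Apart from Gramd1c, then, no member was called for genotype on either diet, and none for diet in either genotype. For diet in Gramd1c+/+ mice edgeR called 0 of 9 members, none of them at an unadjusted p below 0.05, against 66 genes or 0.440% of all tested. In Gramd1c-/- mice it called 0 of 9, with Osbp alone at an unadjusted p below 0.05, against 49 genes or 0.326%. Averaged over genotypes it called 0 of 9, again with Osbp below 0.05 before adjustment, against 195 genes or 1.30% (0.446% higher and 0.852% lower). DESeq2 also called 0 of 9 in each, and had Osbp below 0.05 unadjusted in all 3 and Gramd1a in Gramd1c-/- mice. A count of 0 of 9 lies next to these shares. The interaction of genotype and diet was called for 0 genes by edgeR (250 at an unadjusted p below 0.05, no member among them) and 0 by DESeq2 (367, with Gramd1b among them). The median diet difference of the 9 members was -0.11 log2 in Gramd1c+/+ and 0.02 in Gramd1c-/- mice, beside 0.01 and 0.02 over all genes tested.

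**Figure D3:**
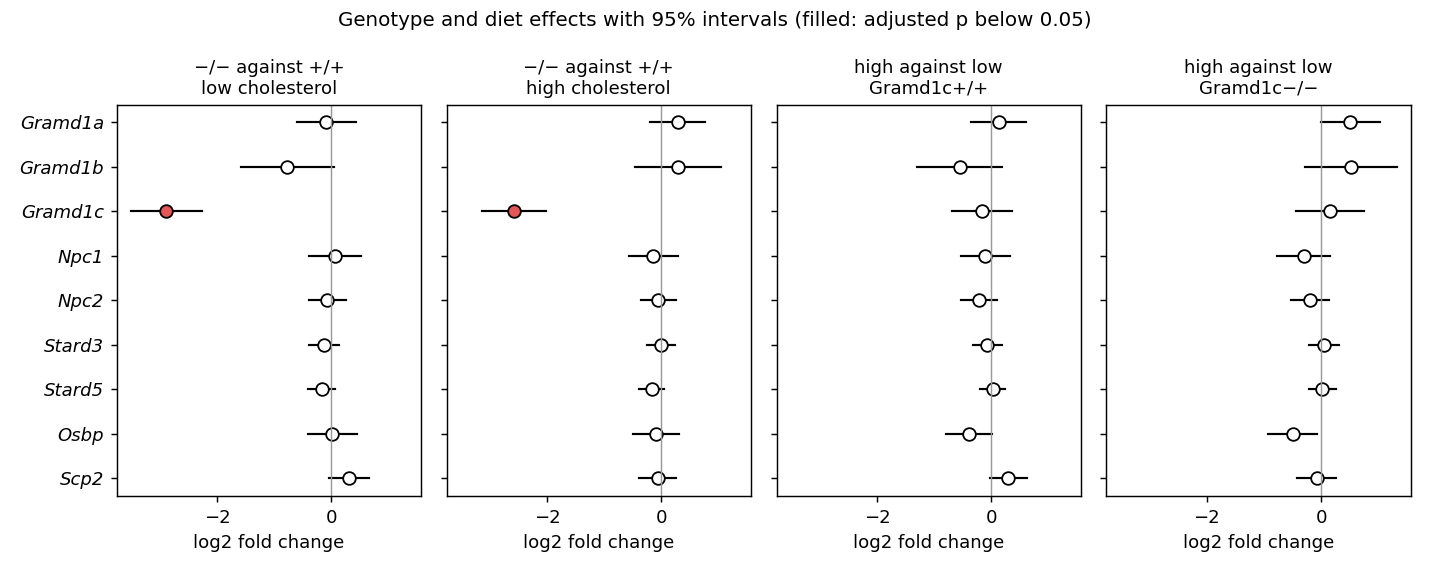
Points are edgeR log2 fold changes of the 9 genes and lines their 95% intervals, for genotype on each diet and for diet in each genotype; filled points passed an adjusted p of 0.05. Gramd1c at -2.89 and -2.58 is the only gene that passed, and among the diet effects the interval of Osbp in −/− mice (-0.92 to -0.07) is the only one that excludes 0.

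Known targets of the sterol response changed with the diet. Squalene epoxidase (Sqle) fell by 4.46 on the log2 scale in Gramd1c+/+ and by 4.60 in Gramd1c-/- mice (edgeR adjusted p = 7.63e-11 and 5.07e-11). Averaged over genotypes, the SREBP2 target Hmgcs1 also fell (-2.34, edgeR adjusted p = 6.25e-09), and Abcg5, a subunit of the sterol exporter of the bile canaliculus and a target of LXR, rose by 0.67 (edgeR adjusted p = 0.00634). The rise of Abcg5 was not called in Gramd1c-/- mice alone. Its ranges overlapped between diets, with up to 92.9 TPM on low and from 89.9 on high cholesterol in Gramd1c+/+ mice. In Gramd1c-/- mice these ends were 102 and 98.6 TPM. The other reference genes given here did not pass: Abcg8, Abca1, Mylip, Nr0b2, Cyp7a1, Abcb11 and Slc51b lay between -0.23 and 0.57.

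Among proteins related to the members, a relative of Stard5 fell on high cholesterol in both genotypes. Stard4, a soluble START protein that shuttles cholesterol to the ER, fell from 54.2 TPM (SD 11.2) to 22.1 TPM (SD 8.03) in Gramd1c+/+ and from 55.9 TPM (SD 7.31) to 20.4 TPM (SD 4.18) in Gramd1c-/- mice. Its ranges did not overlap between diets in either genotype (in that direction 1.03% of genes in Gramd1c+/+ and 0.773% in Gramd1c-/- mice), with 40.1 TPM the lowest on low and 31.2 TPM the highest on high cholesterol in Gramd1c+/+ mice. The log2 differences were -1.27 (SE 0.17, edgeR adjusted p = 1.79e-04) and -1.49 (SE 0.18, edgeR adjusted p = 3.78e-05). The mean of Stard4 in Gramd1c+/+ mice was close to the 52.5 TPM of Stard5 on low cholesterol and below its 52.1 TPM on high cholesterol. The other 6 tested genes listed with the START proteins were not called by edgeR, and DESeq2 called Pctp, a phosphatidylcholine carrier (-0.45, adjusted p = 0.0305). In edgeR Pctp gave -0.44 (adjusted p = 0.0895). With each mouse left out edgeR called Pctp in 1 of 19 fits. The adjusted p ran from 0.0440, without mouse 5 of the Gramd1c+/+ low cholesterol group, to 0.161. Star, the steroidogenic relative, gave -2.19 on average over genotypes, and -0.19 without the 3 libraries left out of the last Gramd1b value (that with adrenal RNA among them).

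Lists of neighbouring functions gave few calls in edgeR, all of them lower on high cholesterol, beside 0.852% of all genes tested that were called lower with the average over genotypes. In the lysosomal list edgeR called 1 of 7 tested genes lower, averaged over genotypes. It was Tmem97, a sterol-regulated protein that binds NPC1 and limits its amount (-0.70, edgeR adjusted p = 0.00109). Its mean went from 152 TPM (SD 18.7) to 88.2 TPM (SD 12.1) in Gramd1c+/+ and from 136 TPM (SD 13.6) to 85.8 TPM (SD 7.61) in Gramd1c-/- mice. In Gramd1c+/+ mice alone Tmem97 was called (edgeR adjusted p = 0.0350), as in 11 of 19 fits with a mouse left out. In Gramd1c-/- mice alone no gene of this list was called. Averaged over genotypes, lysosomal acid lipase (Lipa), which frees the cholesterol that NPC2 binds, differed by -0.33 (adjusted p = 0.153). Of 11 contact site proteins edgeR called 1, the tether Mospd2, which fell by 0.33 (adjusted p = 0.0226), and this call was lost without the 3 libraries (adjusted p = 0.0970) and without mouse 3 or 4 of the Gramd1c-/- low or mouse 2 of the Gramd1c+/+ high cholesterol group (0.0569, 0.0632 and 0.0549). DESeq2 called Esyt2 too (-0.30, adjusted p = 0.0361). In edgeR its adjusted p was 0.0901, and 0.142 without the 3 libraries. With each mouse left out edgeR called Esyt2 in 1 of 19 fits. The adjusted p ran from 0.0413, without mouse 5 of the Gramd1c+/+ high cholesterol group, to 0.175. Vapa, the anchor that OSBP uses at the ER, gave 0.02.

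Of the 7 genes for sterol sensing and esterification in the ER, edgeR called 3 lower, averaged over genotypes. They were Insig1 (-1.27), Srebf2 (-1.28) and Scap (-0.53, edgeR adjusted p = 0.0164, and 0.0535 without mouse 2 of the Gramd1c-/- low cholesterol group). Neither Scap nor Mospd2 was called in either genotype alone. Soat2, which esterifies cholesterol in hepatocytes, differed by 0.12 averaged over genotypes (edgeR adjusted p = 0.546). None of 10 OSBP-related genes and neither of 2 further GRAM domain genes, Gramd2b and Gramd4, was called for diet. The OSBP relatives lay between -0.18 (Osbpl11) and 0.35 (Osbp2), with no unadjusted p below 0.05. For genotype no gene of any of these lists was called on either diet by edgeR.

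**Figure D4:**
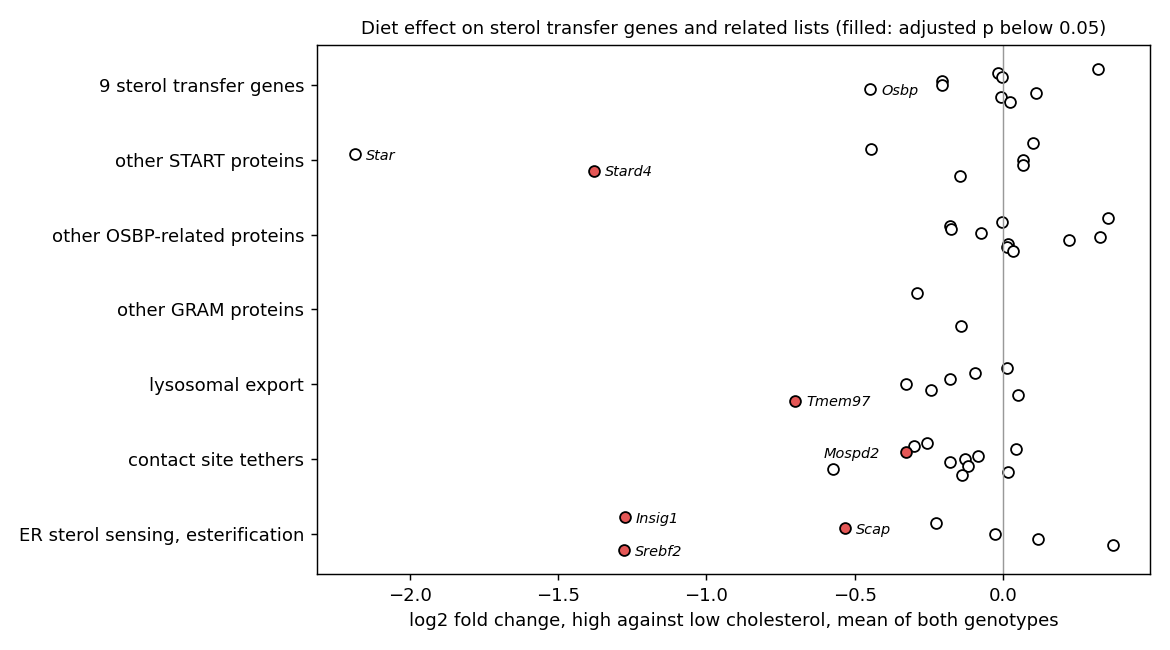
Each point is the log2 fold change of a gene for high against low cholesterol, averaged over genotypes, with a row for the 9 sterol transfer genes and for each related list; filled, named points passed an adjusted p of 0.05, and Osbp and Star are named without having passed. Calls sit at Stard4 (-1.38), Insig1, Srebf2, Tmem97, Scap and Mospd2 (-0.33), while the 9 members stay between -0.45 and 0.32.

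The spread of Osbp among mice was shared with many genes. Its log2 CPM followed the first principal component closely over the 19 mice (Pearson r = -0.87, permutation p = 1e-05, the smallest they can give; Spearman rho = -0.87, permutation p = 1e-05; adjusted over 9 members p = 9e-05 for both). Without the 2 mice farthest from the median score r was -0.85, and after centring each group r was -0.80. The component also moved with the diet, with a median score of -12.6 and -13.6 in Gramd1c+/+ and Gramd1c-/- mice on low and 4.57 and 14.1 on high cholesterol, and its part in the diet difference of Osbp was not tested. With 601 of the 15016 tested genes Osbp correlated above 0.8, and with 300 below -0.8. The other members had 0 to 241 genes above 0.8. Closest to Osbp were Atg13 (r = 0.97), Stag1 (0.95) and Arcn1 (0.95). Gramd1a went the other way by Pearson's r only (r = 0.80, permutation p = 0.00104, adjusted p = 0.00468; rho = 0.45, permutation p = 0.0579, adjusted p = 0.174; r = 0.53 without the 2 farthest mice). The same held, in the direction of Osbp, for Npc2 (r = -0.61, permutation p = 0.0173, adjusted p = 0.0389; rho = -0.34, permutation p = 0.150, adjusted p = 0.302; r = -0.16 without those mice). Npc1 followed the component by both measures (r = -0.64, permutation p = 0.00211; rho = -0.64, permutation p = 0.00414; adjusted p = 0.00633 and 0.0186; r = -0.57 without the 2 farthest mice).

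Npc1 and Osbp varied together over the mice (r = 0.66, permutation p = 0.00226; rho = 0.64, permutation p = 0.00370), with adjusted p of 0.0814 and 0.0666 that miss the threshold over 36 pairs of members, and r was 0.87 without the 2 mice farthest from the median of Npc1. Gramd1c and Stard5 had the highest Spearman rho of the pairs and did not pass either (r = 0.60, permutation p = 0.00800; rho = 0.69, permutation p = 0.00150; adjusted p = 0.109 and 0.0540), where the genotypes form separate clusters. After centring each group r was 0.39 for this pair. The genes nearest in pattern to Npc1 were Srrm1, Ogdh and Abcb11, the bile salt export pump (r = 0.91 for each). Stard5 went with Dcxr (0.87), Haao (0.86) and Sdhb (0.86), and Npc2 with Ugt3a2, Fbp1 and Dhrs1 (0.88 to 0.89).

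Gramd1a was nearest to Zpr1, Luc7l2 and Msantd2 (0.92 to 0.94), and Stard3 to Ndrg2, Rnf114 and Saraf (0.79 to 0.80). Gramd1c came nearest to Wdr34 (0.75), Skap1 (0.70) and 4930452B06Rik (0.68), and Scp2 to Gm30931, Nox4 (both 0.74) and 1190002N15Rik (0.73). Gramd1b was nearest to Cfd, an adipocyte gene (0.89), then to Boc and Cacna2d1 (0.82 and 0.81), and without the 3 libraries these values were 0.09, 0.13 and 0.23. These values of r are Pearson's over 19 mice, given as a description.

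**Figure D5:**
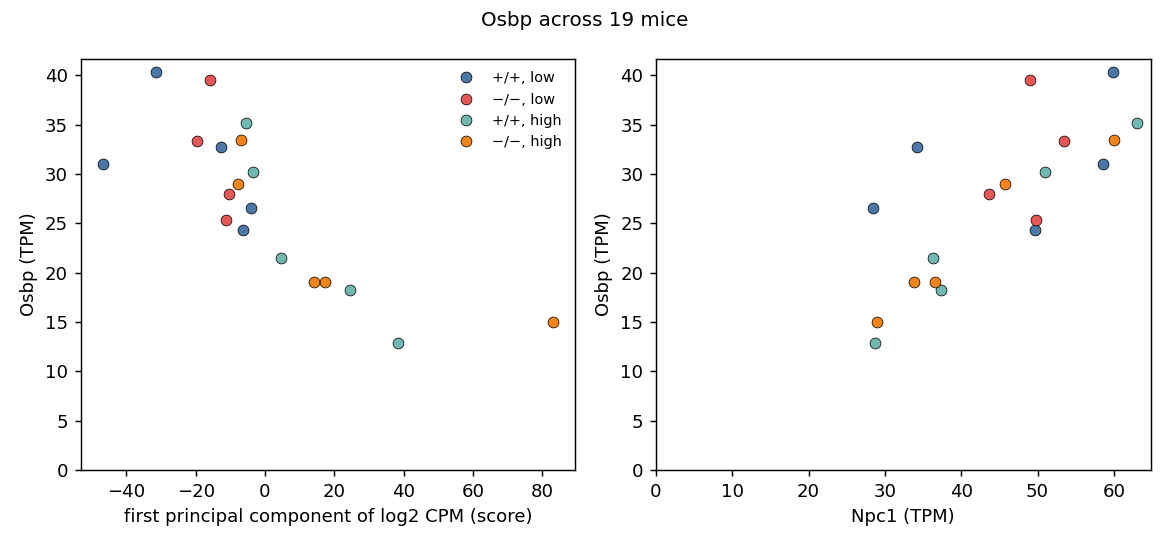
Osbp (TPM) is plotted against the score on the first principal component (left) and against Npc1 (TPM, right), with each of the 19 mice as a point coloured by genotype (+/+ or −/−) and dietary cholesterol. Osbp declines with the score down to 12.9 TPM, the mouse at the far right of the left panel is mouse 5 of the −/− high group, and low and high cholesterol mice mix along the rising trend with Npc1.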

How the data were processed

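Poly(A) RNA of liver was sequenced from 19 mice. Raw read counts per Ensembl gene were deposited for each mouse, not normalized. The submitters' processing notes list STAR 2.5.2b and the mouse build GRCm38, while for the counter, its strand setting and the annotation version the entry is: not given in the sources used here. Symbols were found for 48970 of 49315 gene identifiers. TPM was derived from the counts with the length column of each table. edgeR 4.0.16 (R 4.3.3) was run on the counts of all mice with TMM scaling, filterByExpr (minimum count 10), a coefficient per group and quasi-likelihood F tests. A gene was called where the Benjamini-Hochberg adjusted p over 15016 genes was under 0.05. The fit was tested on simulated data. Group means of TPM were compared by two-sided exact permutation tests (126 or 252 splits), and correlations by 100000 permutations. Libraries of 27149972 to 34669648 counts gave every member at least 74 counts per mouse, and p-values measure the spread between these mice. Promoter windows came from RefSeq.

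The members and lists were chosen with earlier results of these data known. Genes named were the 9 members, up to 4 per list with the smallest p for diet, the diet reference genes (except some that are not reported here), the adrenal markers and the 3 genes most correlated with each member. Vapa, Soat2, Osbpl11, Krt19, Sox9, Des and the acinar markers were added after their values were seen. Alternatives were DESeq2 1.42.0, RLE scaling, no filter, a filter of 50 counts in 4 samples, fits of the compared groups alone, a block for replicate number, a term for 2 runs of file numbers, and each mouse left out. Omitting the 3 libraries (mouse 2 of Gramd1c+/+ low, mice 3 and 5 of Gramd1c-/- high cholesterol) was decided after seeing the data. Mice that share a replicate number did not deviate together (mean correlation -0.07 over 27 such pairs, and 0.02 over 108 pairs of unlike number).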

Additional observations from a re-analysis of the deposited data

Results flagged for a closer look

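In groups of 4 or 5 mice, 4 values of members lay far from the rest of their group by Dixon's criterion, of 36 groups examined, where chance gives about 1 in 20. Gramd1a was at 8.62 TPM in mouse 5 of the Gramd1c-/- high cholesterol group, against 3.03 to 4.36 in the other 4 mice. Gramd1c was at 3.61 TPM in the same mouse, against 1.07 to 1.67. This library also had the lowest Npc2 of all mice (35.1 TPM), the farthest score on the first principal component and 22028 genes detected against 18756 to 20936 elsewhere. Gramd1b was at 3.47 TPM in mouse 2 of the Gramd1c+/+ low cholesterol group, the library with adrenal cortex and adipocyte markers, against 0.530 to 0.706 in the other 4 mice. Gramd1b was also high, at 1.67 TPM, in mouse 3 of the Gramd1c-/- high cholesterol group, the library with cholangiocyte markers and the acinar gene Ctrb1, against 0.705 to 0.964. The part of these markers in the values was not tested beyond leaving the libraries out.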

How the results depend on the processing

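The call of Gramd1c for genotype, and the count of 0 members called for diet and for the interaction, held under every alternative run. Counts over all genes moved more: for diet in Gramd1c+/+ mice 66 genes became 110 with DESeq2 and 41 to 87 when each mouse was left out, with 42 without mouse 2 of the Gramd1c+/+ low and 41 without mouse 2 of the Gramd1c+/+ high cholesterol group. For diet in Gramd1c-/- mice 49 became 91 with DESeq2. For diet averaged over genotypes 195 became 600 with DESeq2, 122 with the replicate number as a block and 119 to 308 when each mouse was left out. With 119 without mouse 2 and 123 without mouse 3 of the Gramd1c-/- low, 129 without mouse 2 of the Gramd1c+/+ high and 308 without mouse 5 of the Gramd1c+/+ low cholesterol group, these 4 mice moved it by over 1.5 times. The cause was not tested.

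Some uncalled differences changed sign, as log2 values, among them the Gramd1b diet and Gramd1a genotype values given in the report. With the replicate number as a block, genotype on low cholesterol became 0.034 for Gramd1a and -0.025 for Osbp, and diet in Gramd1c-/- mice -0.083 for Gramd1c; the block changed no call of a member, and of the listed genes named here Mospd2 and Scap lost theirs for diet averaged over genotypes (adjusted p = 0.0913 and 0.0516). For Osbp on low cholesterol the genotype value was -0.0041 with no filter and -0.00059 with only the groups compared, and for Stard3 on high cholesterol 0.0016 with the stricter filter. Without 3 of the libraries that stood apart (mouse 4 of the Gramd1c-/- high cholesterol group, with the macrophage markers, was kept in), genotype on low cholesterol became -0.076 for Npc1 and -0.028 for Osbp, and on high cholesterol -0.077 for Gramd1a, 0.12 for Stard3 and 0.18 for Npc2. Diet in Gramd1c+/+ mice became 0.22 for Gramd1b and -0.053 for Stard5, diet in Gramd1c-/- mice -0.32 for Gramd1c and 0.038 for Npc2, and the interaction of Gramd1c -0.088.

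With each mouse left out in turn, genotype on low cholesterol ranged from -0.95 to 0.0050 for Gramd1b, -0.072 to 0.19 for Npc1 and -0.085 to 0.15 for Osbp. On high cholesterol it ranged from -0.11 to 0.41 for Gramd1a, -0.073 to 0.056 for Stard3, -0.15 to 0.081 for Npc2, -0.20 to 0.030 for Osbp and -0.17 to 0.0061 for Scp2. Diet in Gramd1c+/+ mice ranged from -0.73 to 0.23 for Gramd1b, -0.12 to 0.014 for Stard3, -0.045 to 0.094 for Stard5 and -0.24 to 0.023 for Npc1. Diet in Gramd1c-/- mice ranged from -0.30 to 0.28 for Gramd1c, -0.0087 to 0.12 for Stard3, -0.020 to 0.073 for Stard5 and -0.18 to 0.057 for Scp2, and the interaction of Gramd1c from -0.14 to 0.44.

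The order of the 9 mean levels was the same in TMM-scaled counts corrected for length as in TPM. Gramd1b, with 78 to 473 counts per library, has the widest intervals.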
